A study of Homo sapiens with 6 samples.

Results

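The BCL2 family decides whether the mitochondrial route to apoptosis opens, and 10 of its genes were followed here in a tongue carcinoma cell line in which the transcription factor XBP1 had been silenced. The members were the anti-apoptotic genes BCL2, BCL2L1, MCL1 and BCL2A1, the pore-forming effectors BAX and BAK1, and the BH3-only genes BCL2L11, BBC3, PMAIP1 and BID. They were taken as all non-control probes whose RefSeq accession maps to one of these symbols, which gave 16 probes for the 10 genes, of 19740 genes named by a probe on the array. All 16 probes were well above background on all 6 arrays and all 16 were tested.

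CAL-27 is an established line from a human tongue squamous cell carcinoma. The arrays compared 3 samples of CAL-27 with XBP-1s silenced by an shRNA (shXBP-1s) and 3 with a control shRNA (shCtrl), and no drug or other treatment is named for either group. Per the study's methods the cells were stably transduced, and the arrays hold no time course. Nothing in the labels says whether the 3 samples of a group were separate cultures, so the p-values measure the spread between these samples, which may be technical.

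Anti-apoptotic proteins of this family bind and restrain the effectors BAX and BAK1, which otherwise form pores in the outer mitochondrial membrane and release cytochrome c. BH3-only proteins are sensors of damage: they occupy the anti-apoptotic proteins or activate the effectors directly. In cells with unfolded protein in the endoplasmic reticulum, XBP-1s, the transcription factor made from IRE1-spliced XBP1 mRNA, raises folding capacity, whereas prolonged signalling through PERK, ATF4 and CHOP (the product of DDIT3) is known to induce BH3-only genes such as BCL2L11, BBC3 and PMAIP1.

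The level of a probe is its log2 signal after subtraction of the array's 75th percentile, so that 0 marks that percentile, and differences are shXBP-1s minus shCtrl on the same scale. A probe was said to pass when its Benjamini-Hochberg adjusted p from limma over all 27624 tested probes was below 0.05. The signals of different probes depend on their sequences, so a difference in level between probes is not a difference in RNA amount, and distances between probes are compared only between the groups. XBP1 itself lay at 1.85 to 1.88 in shCtrl and at -0.54 to -0.50 in shXBP-1s, a fall to 19.1% of the control level (log2 change -2.39, SE 0.04, adjusted p = 2.81e-07 from limma). The spots well above background made up 82.1% to 84.8% of each array, no spot was saturated, and the 75th percentile of the signal was 687.4 to 761.3 on shCtrl and 792.0 to 983.4 on shXBP-1s arrays. The files show 2 scans, with shCtrl replicates 2 and 3 in scan 1 and shCtrl replicate 1 with all 3 shXBP-1s arrays in scan 2. All 9 of 9 squamous epithelial markers were well above background on all 6 arrays. The summed linear level of these markers was 102 to 109 on shCtrl and 140 to 165 on shXBP-1s arrays, with 7 of 9 higher past the test. This sum rests mostly on the brightest probes, of which SFN rose (0.71) and CDH1 (0.13) and EPCAM (0.01) did not pass. The changes of dimmer markers were larger, and 5 of the 9 passed at 2-fold or more, against 5.18% of all genes tested by their brightest probe. These were KRT6A (4.28), KRT14 (1.58), KRT17 (1.53), KRT5 (1.43) and DSG3 (1.17). Probes for 4 of 5 fibroblast markers, all but COL3A1, were also well above background on all arrays, with a summed level over the list of 0.945 to 1.04 in shCtrl and 0.608 to 0.631 in shXBP-1s. Of these 4, LUM was higher (1.94), PDGFRB (-1.28) and COL1A1 (-0.63) were lower, and 1 did not pass. The same held for the 4 leukocyte markers with a probe (0.691 to 0.747 and 0.767 to 0.864) and for 3 of 3 endothelial markers (0.197 to 0.259 and 0.244 to 0.260). The part of these marker levels in the results that follow was not tested.

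Of the 10 genes of the family, 3 had a probe that differed between shXBP-1s and shCtrl, and none differed by 2-fold. Of the 16 member probes 3 passed, which is 18.8%, whereas 41.7% of all tested probes passed. The order of these shares turned with the scan as a block, as given with that fit, and under normexp background correction alone, where 4 of 16 member probes (25%) and 16.3% of all tested probes passed. The p-values of that normexp fit take little account of a probe's own spread, as given with BAX below. With the scaling described above, the 3 passing member probes were a probe of the BH3-only gene BCL2L11 and the probe of the BH3-only gene PMAIP1, both lower in shXBP-1s, and a probe of the anti-apoptotic gene BCL2A1, which was higher. Passing probes were higher in 18.4% and lower in 23.3% of all tested probes. At an unadjusted p below 0.05, 4 of the 16 probes were counted, against 49.6% of all tested probes in the same fit. In limma 0 of 16 passed with a change of at least 2-fold, against 4.9% of all tested probes. The median log2 change was -0.03 over the 16 probes and -0.02 over all tested probes, and the median size of the change, without its sign, was 0.11 over the members and 0.23 over all. The 95% confidence interval of every one of the 16 differences lay inside 2-fold in either direction.

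**Figure D1:**
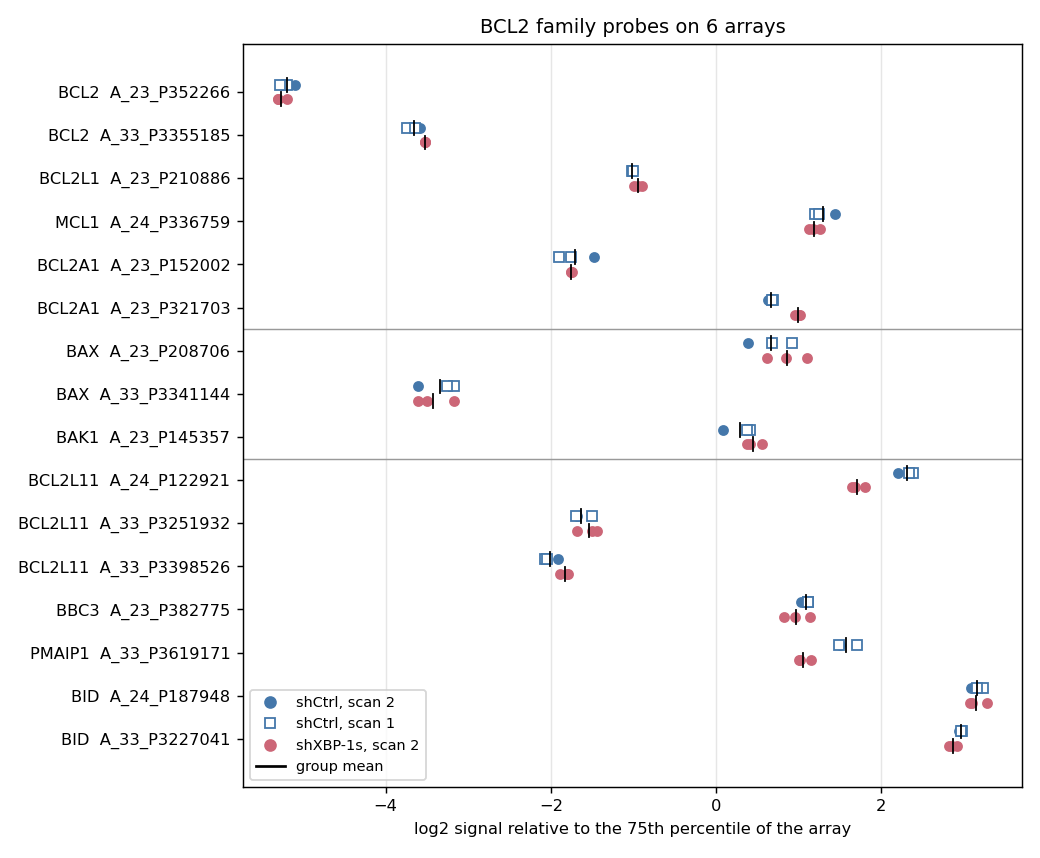
Level (log2 signal less the array's 75th percentile, x axis) of the 16 member probes, with a point for each array (blue shCtrl, red shXBP-1s, open squares scan 1, filled circles scan 2) and a black bar for each group mean. The groups stand apart most clearly for BCL2L11 probe A_24_P122921 (2.20 to 2.38 against 1.64 to 1.80) and PMAIP1 (1.49 to 1.71 against 1.00 to 1.15), and for BCL2A1 probe A_23_P321703 (0.63 to 0.69 against 0.96 to 1.01).

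BCL2L11 encodes BIM, a BH3-only protein that binds all the main anti-apoptotic members and can activate BAX and BAK1. Its probe A_24_P122921 (NM_138621) was at 2.20, 2.38 and 2.34 on the shCtrl arrays and at 1.68, 1.80 and 1.64 on the shXBP-1s arrays. All 3 silenced samples were below all 3 controls. The probe fell by 0.60 on the log2 scale, to 65.9% of the control level (SE 0.06, 95% CI -0.75 to -0.45, adjusted p = 0.000184 from limma). The size of the change was exceeded by 15.8% of all tested probes.

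The other 2 BCL2L11 probes, which carry the accession NM_207002, did not pass in either direction. Probe A_33_P3251932 was at -1.69, -1.70 and -1.50 in shCtrl and at -1.50, -1.44 and -1.69 in shXBP-1s, and the groups overlapped (0.09, 95% CI -0.11 to 0.29, adjusted p = 0.437 from limma). Probe A_33_P3398526 was at -1.91, -2.07 and -2.05 in shCtrl and at -1.89, -1.81 and -1.79 in shXBP-1s. Its silenced samples were all above the controls by a small margin, and the difference did not pass (0.18, 95% CI 0.03 to 0.33, adjusted p = 0.0594 from limma). This probe passed as higher under quantile normalization, on the authors' log2 values and without shCtrl replicate 1 (0.23, adjusted p = 0.0185 from limma), and its sign turned under normexp background correction (-0.13). The change of A_24_P122921 lay 0.69 below that of the former and 0.78 below that of the latter. Within each array the log2 distance from A_24_P122921 to A_33_P3398526 was 4.11 to 4.45 in shCtrl and 3.43 to 3.60 in shXBP-1s, without overlap. An exact 2-sided permutation test of this distance gave p = 0.1 (3 arrays a group), the smallest p that 3 arrays against 3 can give, and 0.175 after Benjamini-Hochberg adjustment over the 7 probe pairs of the family. The files give each probe a transcript accession and no position in it, so whether the probes report different BCL2L11 transcripts was not tested.

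PMAIP1 encodes NOXA, a BH3-only protein that binds mainly MCL1 and BCL2A1. Its single probe A_33_P3619171 was at 1.50, 1.71 and 1.49 in shCtrl and at 1.00, 1.02 and 1.15 in shXBP-1s. The groups did not overlap, and the level fell by 0.51 on the log2 scale, to 70.2% of the control (SE 0.07, 95% CI -0.68 to -0.34, adjusted p = 0.0008 from limma). The gene had no other probe to set beside it. Under normexp background correction alone, which moved the median of all tested probes to -0.41, the changes of these BCL2L11 and PMAIP1 probes were -0.51 and -0.49, which is -0.09 and -0.08 relative to that median. With quantile normalization after normexp they were -0.53 and -0.52. The move under normexp alone was uneven over the probes, with BCL2 A_23_P352266 going from -0.07 to -0.84 and BID A_24_P187948 from -0.01 to 0.04.

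BBC3 and BID completed the BH3-only members. BBC3, which encodes PUMA, a p53 target that binds all anti-apoptotic members, was at 1.03, 1.11 and 1.11 in shCtrl and at 0.82, 0.95 and 1.14 in shXBP-1s. The third silenced sample was above every control and the other two were below them, and the difference was -0.11 (95% CI -0.30 to 0.07, adjusted p = 0.289 from limma). Without shXBP-1s replicate 3 it was -0.20 and passed (adjusted p = 0.0349 from limma). BID links death receptors to mitochondria after it is cut by caspase 8. Its probe A_24_P187948 was at 3.09, 3.23 and 3.16 in shCtrl and at 3.07, 3.10 and 3.28 in shXBP-1s, which gave a difference of -0.01 (95% CI -0.17 to 0.15, adjusted p = 0.916 from limma). Its probe A_33_P3227041 was at 2.94, 2.98 and 2.96 in shCtrl and at 2.82, 2.86 and 2.92 in shXBP-1s. Here all silenced samples were below all controls by a small margin, and the difference of -0.09 did not pass (95% CI -0.20 to 0.01, adjusted p = 0.138 from limma). Over the 7 BH3-only probes, 2 were lower, 0 were higher and 5 did not pass, with a median log2 change of -0.09. Among all tested probes 23.3% passed as lower and 18.4% as higher, so 2 of 7 lower is near the share over all.

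Among the anti-apoptotic members, a BCL2A1 probe rose. BCL2A1 encodes BFL-1, also called A1, an NF-kB target that restrains BIM and NOXA. Its probe A_23_P321703 was at 0.63, 0.69 and 0.68 in shCtrl and at 0.96, 1.01 and 1.00 in shXBP-1s. The spread within each group was 0.03 (SD) and the groups were far apart on that scale. The rise of 0.32 (SE 0.04, 95% CI 0.22 to 0.42, adjusted p = 0.000554 from limma) was 1.25-fold, and 36.8% of all tested probes changed by more. The other BCL2A1 probe, A_23_P152002, carries the same accession, NM_004049. It was at -1.48, -1.90 and -1.76 in shCtrl and at -1.76, -1.76 and -1.74 in shXBP-1s, so the silenced samples lay within the range of the controls (-0.04, 95% CI -0.28 to 0.19, adjusted p = 0.779 from limma). The changes of these probes differed by 0.36, without overlap of the groups (exact permutation p = 0.1, 3 arrays a group, and 0.175 after adjustment over the 7 pairs).

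BCL2, the founding anti-apoptotic gene, had probe A_23_P352266 (NM_000633) at -5.10, -5.19 and -5.28 in shCtrl and at -5.30, -5.30 and -5.19 in shXBP-1s. The mean signal behind these values was 19.5 to 25 units on the scanner's linear scale, and the difference of -0.07 did not pass (95% CI -0.34 to 0.19, adjusted p = 0.647 from limma). Its probe A_33_P3355185 (NM_000657) was at -3.59, -3.74 and -3.65 in shCtrl and at -3.53, -3.52 and -3.52 in shXBP-1s. All silenced samples were above all controls, yet the difference of 0.14 did not pass (95% CI -0.04 to 0.31, adjusted p = 0.18 from limma). BCL2L1, whose long product BCL-xL guards mitochondria in many epithelia, was at -1.01, -1.02 and -1.01 in shCtrl and at -0.99, -0.94 and -0.90 in shXBP-1s. These groups did not overlap, but the distance between them was slight (0.07, 95% CI -0.04 to 0.18, adjusted p = 0.293 from limma). MCL1, a short-lived anti-apoptotic protein, was at 1.44, 1.20 and 1.25 in shCtrl and at 1.26, 1.17 and 1.13 in shXBP-1s. Its groups overlapped, with a difference of -0.11 (95% CI -0.27 to 0.06, adjusted p = 0.271 from limma). Over the 6 anti-apoptotic probes 1 was higher, 0 were lower and 5 did not pass, and the median log2 change was 0.01. This 1 of 6 is near the 18.4% of all tested probes that passed as higher, and 23.3% of all passed as lower.

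The effectors themselves did not pass with the scaling used above. BAX probe A_23_P208706, the mean of 10 spots, was at 0.39, 0.92 and 0.68 in shCtrl and at 0.62, 0.85 and 1.1 in shXBP-1s. These were the widest spreads among the members (SD 0.27 and 0.24), although the spots of an array agreed to within an SD of 0.036 to 0.067, so the spread lay between arrays. The difference was 0.19 (95% CI -0.17 to 0.55, adjusted p = 0.366 from limma). Under normexp background correction alone it was 0.27 and passed as higher (adjusted p = 0.0132 from limma). BAX probe A_33_P3341144 was at -3.61, -3.17 and -3.26 in shCtrl and at -3.50, -3.17 and -3.61 in shXBP-1s, with the groups overlapping (-0.08, 95% CI -0.42 to 0.27, adjusted p = 0.706 from limma). BAK1 was at 0.08, 0.41 and 0.37 in shCtrl and at 0.55, 0.41 and 0.38 in shXBP-1s. A single control, replicate 1, was low, and the groups overlapped (0.16, 95% CI -0.05 to 0.38, adjusted p = 0.202 from limma). With quantile normalization after normexp the BAK1 difference was 0.18 and passed as higher (adjusted p = 0.0411 from limma). For the 13 probes that did not pass, the differences ran from -0.11 to 0.19 and the confidence limits from -0.42 to 0.55.

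**Figure D2:**
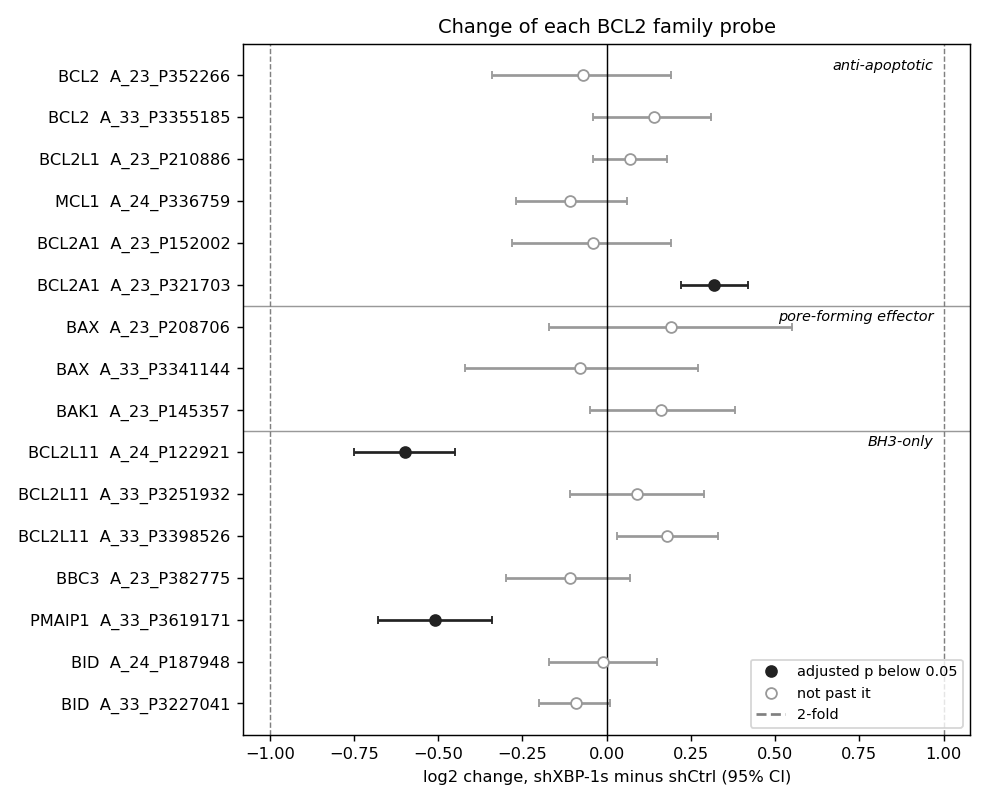
Log2 change (shXBP-1s minus shCtrl, x axis) of each of the 16 member probes with its 95% confidence interval from limma, ordered by role, with filled black points for adjusted p below 0.05 and dashed lines at 2-fold. The filled points are BCL2A1 (0.32), BCL2L11 (-0.60) and PMAIP1 (-0.51), and no interval reaches 2-fold.

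Without regard to the test, 7 of the 16 probes had groups that did not overlap, 4 of them higher and 3 lower in shXBP-1s, whereas 52.4% of all tested probes had such groups. The 7 were those of BCL2 (A_33_P3355185), BCL2L1, BCL2A1 (A_23_P321703), BCL2L11 (A_24_P122921 lower and A_33_P3398526 higher), PMAIP1 and BID (A_33_P3227041). Groups that did not overlap were higher in 23.9% and lower in 28.5% of all tested probes. With the scan as a block, the only control array that counts is shCtrl replicate 1, which shares a scan with the silenced samples. The 3 passing probes kept their direction in it, at -0.50 for BCL2L11, -0.44 for PMAIP1 and 0.36 for BCL2A1. In that fit 3 more probes passed, MCL1 at -0.25, BCL2A1 probe A_23_P152002 at -0.28 and BAK1 at 0.37, and these rest on the 1 control array. The count was then 6 of 16 probes, or 37.5%, against 31.5% of all tested probes in the same fit.

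**Figure D3:**
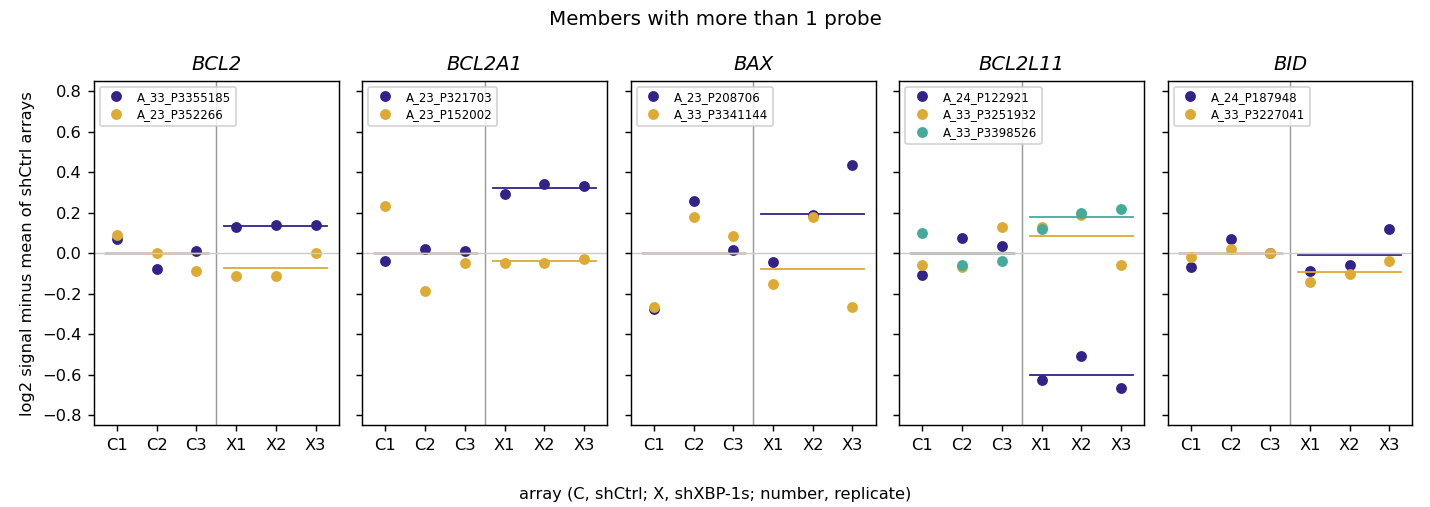
Members with more than 1 probe, with the log2 signal of each array minus the mean of the shCtrl arrays (y axis) for each probe (colour) and horizontal lines at the group means. In BCL2L11 the points of A_24_P122921 lie near -0.6 in the shXBP-1s samples and those of the other 2 probes near or above 0, and in BCL2A1 only A_23_P321703 lies apart from its controls.

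The 250 bases before the RefSeq start site are shown for the 3 members with a passing probe, because they place the changed genes on the genome. They also hold matches to some of the short motifs described below. They were read from RefSeq windows of 300 bases (250 before and 50 after a start site, GRCh38.p14), which covered 9 of the 10 members in 14 windows, and are written 5′ to 3′ with motif matches in capitals.
BCL2L11, chr2:111120664-111120913, plus strand: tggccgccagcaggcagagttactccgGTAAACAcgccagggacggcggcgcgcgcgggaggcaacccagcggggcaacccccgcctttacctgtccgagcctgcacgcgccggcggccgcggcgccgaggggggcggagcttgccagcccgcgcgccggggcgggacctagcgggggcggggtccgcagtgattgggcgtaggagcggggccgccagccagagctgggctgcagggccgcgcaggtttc
PMAIP1, chr18:59899746-59899995, plus strand: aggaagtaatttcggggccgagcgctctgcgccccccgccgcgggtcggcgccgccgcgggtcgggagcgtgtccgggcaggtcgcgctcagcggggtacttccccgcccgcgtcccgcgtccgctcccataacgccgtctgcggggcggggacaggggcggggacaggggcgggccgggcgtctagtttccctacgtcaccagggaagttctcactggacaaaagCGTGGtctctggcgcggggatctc
BCL2A1, chr15:79971197-79971446, minus strand: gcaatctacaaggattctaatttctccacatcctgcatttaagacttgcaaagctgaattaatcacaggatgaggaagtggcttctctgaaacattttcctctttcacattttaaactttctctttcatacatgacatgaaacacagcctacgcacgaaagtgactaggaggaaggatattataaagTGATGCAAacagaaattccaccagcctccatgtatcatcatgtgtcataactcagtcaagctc

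A total of 5 motifs were searched on both strands. ACGTG is the core that XBP1 and related factors bind. The second was the last 5 letters of the ER stress response element, CCACG, which can share bases with the XBP1 core, and the third was the whole ER stress response element. The C/EBP-ATF composite site was searched as TGATGNAA, and the forkhead site as GTAAACA. The capitals in the BCL2L11 window are a forkhead match, starting 223 bases before the start site, and those in the BCL2A1 window are a match to the composite site, starting 63 bases before it. The capitals in the PMAIP1 window are the end of the stress element on the reverse strand, starting 24 bases before the start site. None of these 3 windows held the XBP1 core, which was found in 4 of the 14 member windows and in 21.4% of all 35116 windows. Those 4 belong to 3 of the 9 members, BAX, BBC3 and BID. BAX had 9 matches on the 2 strands together, several of them the same bases read on either strand. The end of the stress element was in 38.1% of all windows and in 7 of the 14 member windows, which belong to 4 of the 9 members. The composite site was in 3.62%, the forkhead site in 3.42% and the whole stress element in 0.0769% of all windows, the last in none of the members'. A match is a description of the letters, and binding was not measured here.

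Genes around the family were taken from 7 lists of the apoptosis pathway, and for each gene the tested probe of highest mean signal was used. Of 70 genes tested 20 were higher, 22 were lower and 28 did not pass, so that 60.0% passed, against 46.4% of all 16821 genes tested in this way (18.9% higher and 27.5% lower). By the same rule 3 of the 10 members passed. The 3 of 70 that passed at 2-fold or more were ERO1A, HSPA5 and USP9X, against 5.18% of all genes. The lists were chosen with earlier results of these data known, so these shares are a description and not an independent comparison.

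Of 13 other BCL2 relatives 2 were higher, 6 were lower and 5 did not pass. BMF, a BH3-only gene of cells that lose attachment, was between -0.69 and -0.63 in shCtrl and between -1.72 and -1.61 in shXBP-1s. It fell to 50% of the control level (log2 change -1.0, SE 0.05, adjusted p = 5.52e-06 from limma), just short of 2-fold, and its other probe fell as well (-0.39, adjusted p = 0.0385). BNIP3L, a BH3-like receptor that marks mitochondria for autophagy, fell to 51.2% (-0.97, adjusted p = 2.67e-06), with -0.20 on its other probe. BCL2L12 fell on probe A_33_P3217123 (-0.59, adjusted p = 0.000373) but not on its other probe (0.16, adjusted p = 0.255).

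Of 13 genes of the mitochondrial pathway and its caspases 3 were higher, 3 were lower and 7 did not pass. HTRA2, a mitochondrial protease that inhibits IAP proteins once released, rose by 0.48 (adjusted p = 0.00163), and VDAC1, a channel of the outer membrane, fell by 0.31 (adjusted p = 0.000987, both from limma). Of the 6 inhibitor of apoptosis (IAP) genes 0 were higher, 4 were lower and 2 did not pass. BIRC3, which encodes cIAP2, was between 2.64 and 2.72 in shCtrl and between 1.94 and 2.02 in shXBP-1s and fell to 61.0% (-0.71, SE 0.05, adjusted p = 1.32e-05 from limma). BIRC2, which encodes cIAP1, fell by 0.33 and BIRC5, which encodes survivin, by 0.26.

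In the death receptor pathway, which reaches this family through BID, 4 genes were higher, 1 was lower and 5 did not pass among 10. TNFRSF10A, a receptor for TRAIL, rose from between -0.96 and -0.87 in shCtrl to between -0.38 and -0.17 in shXBP-1s (0.64, SE 0.06, adjusted p = 0.00012 from limma). FADD, the adaptor of these receptors, rose by 0.24. CASP10, an initiator caspase, rose by 0.30 on 1 of its 3 tested probes, and the other 2 were at 0.02 and -0.06 and did not pass.

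Of the 16 tested genes of ER stress death signalling 5 were higher, 4 were lower and 7 did not pass, and MAPK8 had no probe by this match. In the arm known to induce BH3-only genes, DDIT3 was at -2.73, -2.69 and -2.59 in shCtrl and at -2.59, -2.64 and -2.66 in shXBP-1s, and the difference of 0.04 did not pass (adjusted p = 0.633 from limma). Under normexp background correction alone the DDIT3 difference was -0.32, or 0.09 relative to the median of all tested probes. ATF4 mRNA differed by 0.02 (adjusted p = 0.829). TRIB3, of the same list, rose by 0.42 (adjusted p = 0.000604 from limma). CHAC1 (-0.07) did not pass, nor did ATF3 on its brightest probe (0.14), although 2 of its 4 tested probes passed as higher. ERO1A, an oxidase of the endoplasmic reticulum and a CHOP target, rose to 230% (1.20, SE 0.07, adjusted p = 7.22e-06) and HSPA5, its major chaperone, fell to 48.2% (-1.05, SE 0.04, adjusted p = 2.67e-06, both from limma). PPP1R15A, a regulator of eIF2 dephosphorylation, rose by 0.45 (adjusted p = 0.0014), but its sign turned (-0.09) under normexp background correction.

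Of 8 transcription factors known to act on genes of this family 5 were higher, 1 was lower and 2 did not pass. FOXO1 and FOXO3, forkhead factors that are known activators of BCL2L11, moved in opposite directions. FOXO1 was between -1.52 and -1.39 in shCtrl and between -0.49 and -0.47 in shXBP-1s and rose to 195% (0.96, SE 0.05, adjusted p = 6.7e-06 from limma). FOXO3 was between 2.59 and 2.64 in shCtrl and between 2.13 and 2.23 in shXBP-1s and fell to 72.9% (-0.46, adjusted p = 0.000138), with -0.42 and -0.15 on its other 2 probes, of which the last did not pass. STAT3, known to act on BCL2L1 and MCL1, rose on both of its probes (0.50 and 0.44), and NFKB1 and RELA, known to act on BCL2A1, rose by 0.33 and 0.32.

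MCL1 mRNA did not pass (-0.11, or -0.25 with the scan as a block, which rests on 1 control array). All 4 genes listed for the turnover of its protein passed on their brightest probe, against 46.4% of all genes tested in this way. USP9X, a deubiquitinase known to protect MCL1, was between -0.51 and -0.26 in shCtrl and between -2.06 and -1.90 in shXBP-1s and fell to 33.7% (-1.57, SE 0.08, adjusted p = 4.44e-06 from limma). FBXW7 and BTRC, F-box proteins of ligases that mark MCL1 for degradation, fell by 0.42 and 0.38. HUWE1, a further MCL1 ligase, rose by 0.46 on probe A_33_P3811287 and was at -0.01 on its other probe. Protein was not measured on these arrays.

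**Figure D4:**
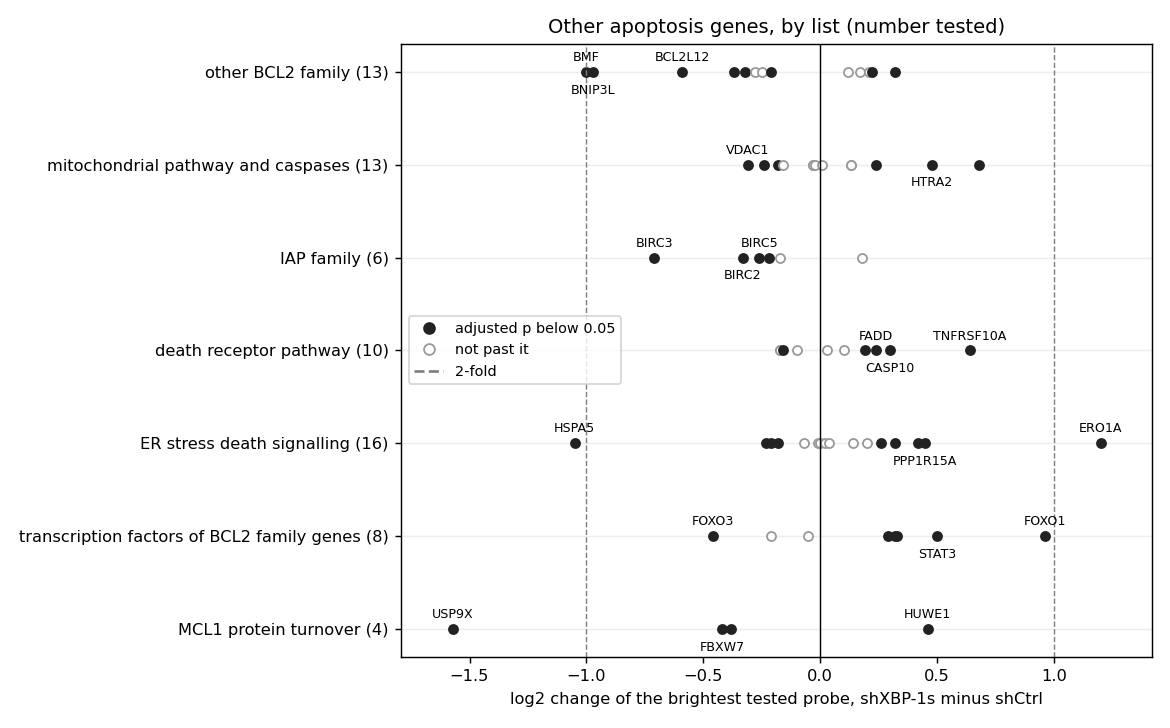
Log2 change (shXBP-1s minus shCtrl, x axis) of the 70 other apoptosis genes tested, in rows by list, each by its probe with the highest mean signal, with filled points for adjusted p below 0.05 and dashed lines at 2-fold. USP9X (-1.57), HSPA5 (-1.05) and ERO1A (1.20) lie beyond 2-fold, BMF (-1.0) lies at the line, and no IAP gene that passed lies to the right of 0.

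The probes whose profile over the 6 arrays lay closest to that of BCL2L11 probe A_24_P122921 belonged to NFATC1, MAP6 and KCNG1. After each profile was centred on its own mean, the root mean square difference of their log2 levels was 0.036, 0.040 and 0.040, among 20809 named probes well above background on all arrays. NFATC1 was at -1.43, -1.26 and -1.36 in shCtrl and at -1.95, -1.89 and -1.96 in shXBP-1s, a log2 change of -0.58 (adjusted p = 0.000165 from limma). The likeness is a description over 6 arrays that share the same 2 groups and scans.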

How the data were processed

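Gene expression was measured on 6 1-colour Agilent arrays, 3 shXBP-1s and 3 shCtrl, grouped by the sample labels. The authors deposited the intensity of each spot from Agilent Feature Extraction 11.0.1.1, background-subtracted and not normalized between arrays, and a table of log2 values with equal quartiles on every array, used as an alternative; its scale and centring are not described beyond the name RMA in the submitters' processing notes, while its values correlated with the log2 scanner signals at 0.9895 to 0.992.

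From the intensities, log2 signals minus the 75th percentile of non-control spots were formed, without non-uniform or outlier spots (230 to 377 an array), and spots of a probe were averaged. Of 34127 probes, 25771 matched a RefSeq (GRCh38.p14) symbol by accession, and 19 had no usable spot on an array. The 27624 probes well above background (over 50% of their spots) on all 3 arrays of a group were tested with limma 3.58.1 in R 4.3.3 (lmFit, eBayes with trend), 2-sided, with Benjamini-Hochberg adjustment. The test was checked on simulated data. Precision is limited by having 3 arrays a group.

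The members, gene lists, motifs and alternatives were chosen with earlier results of these data known. All members, XBP1, the up to 3 passing genes with the largest change in each apoptosis list and the 3 genes with the profile most like that of the leading member were named; other genes were named after their values were seen. Not every gene that this rule names is reported here. Alternatives were normexp (offset 50, on the median signal as the files used here have no mean), normexp then quantile, quantile normalization, the deposited log2 values, 2 filters, limma without trend, the methods' t-test, the replicate number or the scan as a block, gene means over probes, and each array left out.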

Additional observations from a re-analysis of the deposited data

How the results depend on the processing

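The 3 passing member probes kept their direction and passed under every one of the 17 alternatives run for each member probe, with log2 changes of 0.31 to 0.38 for BCL2A1 (A_23_P321703; adjusted p at most 0.00666 from limma or the methods' test), -0.66 to -0.50 for BCL2L11 (A_24_P122921; at most 0.00774) and -0.55 to -0.44 for PMAIP1 (at most 0.0177). Of 272 combinations of a member probe and an alternative, 244 kept direction and side of the threshold, 12 newly passed, 0 were lost and 16 turned sign, all 16 without passing. The number of passing member probes was 6 with the scan as a block (2 higher, 4 lower, resting on shCtrl replicate 1), which is 37.5% against 31.5% of all tested probes, and 6 by the methods' t-test without adjustment (3 higher, 3 lower), against 43.9% of all. It was 3 to 4 with an array left out, and 3 with the replicate number as a block, where 41 apoptosis genes passed and XBP1 was at -2.39. No paired reading of that block is made, because same-numbered arrays did not deviate together (correlations -0.016, 0.117 and -0.116); the block changed no call of a member probe.

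Normexp background correction alone moved the median of all tested probes to -0.41, but not evenly. BCL2 A_23_P352266 went from -0.07 to -0.84 and BCL2A1 A_23_P321703 from 0.32 to 0.33. Under this correction 4 of 16 member probes (25%) passed, with BAX A_23_P208706 (0.27) added, against 16.3% of all. The number of passing apoptosis genes was then 26 (17 higher, 9 lower) in place of 42 (20 higher, 22 lower), and the member probes that turned sign were BCL2 A_33_P3355185 (-0.52), BCL2L1 (-0.05), BCL2L11 A_33_P3251932 (-0.11) and A_33_P3398526 (-0.13), and BID (0.04 and 0.01). Relative to that median, BCL2L11 A_24_P122921 (-0.51) was at -0.09, PMAIP1 (-0.49) at -0.08 and BCL2A1 (0.33) at 0.75; when quantile normalization followed normexp, the changes were -0.53, -0.52 and 0.31. BID A_24_P187948 was at 0.06 under quantile normalization, 0.05 on the deposited values and 0.06 with the scan block, and BAX A_33_P3341144 at 0.18 with the scan block. With an array left out, BCL2A1 A_23_P152002 ranged from -0.13 to 0.08 (positive without shCtrl replicate 1), BAX A_33_P3341144 from -0.21 to 0.01 (positive without shCtrl replicate 2 or shXBP-1s replicate 3) and BID A_24_P187948 from -0.08 to 0.03 (positive without shCtrl replicate 2, shXBP-1s replicate 1 or shXBP-1s replicate 2). The cause was not tested. The number of passing apoptosis genes was 32 to 44 with an array left out, and the XBP1 change was -2.40 to -2.38.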
